A study of Mus musculus with 4 samples.

Results

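Gene expression was compared between 2 cultures of mouse melan-a melanocytes that had both received EGF: Hmhi-MYC-TA cells and the cells labelled Hmhi-Miz1 kd, whose source name is Hmhi-pS-Miz1. The comparison used 2 of the 4 arrays of the series. Its members were all genes with a probe set that the platform annotation ties to 1 gene, which were 18193 genes, 11613 of them above the level filter explained below. melan-a is an immortal, non-tumorigenic melanocyte line, kept in culture with the phorbol ester TPA and cholera toxin. Before the assay the medium was switched to one whose 10% serum was dialyzed, and in 3 of the 4 cultures EGF was added at 100 ng/ml over 14 days. All 4 cultures carried Hmhi, so the arrays compared here differ in what was added to Hmhi and share both Hmhi and EGF. The other arrays were Hmhi cells starved without EGF and Hmhi cells with EGF. The labels do not spell out Hmhi, MYC-TA or pS, and they do not say whether a culture came from 1 clone or a pool.

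There were no replicates. Each value below is therefore a difference between 2 arrays and not a tested difference between conditions, and no p-value was computed. Levels are log2 signals and are always listed in the order Hmhi starved, Hmhi EGF, labelled Miz1 kd, MYC-TA. A difference is the MYC-TA level minus the level on the array labelled Miz1 kd, on the log2 scale, so a positive value means higher in MYC-TA. Of several probe sets of a gene, the brightest on average is used. A gene entered if its higher level of the 2 reached the array median, 6.66. The only spread that the files allow is that of the differences between probe sets of the same gene. Its SD was 0.41 over 5304 genes. It was 0.26 for MYC-TA minus Hmhi EGF and 0.23 for the array labelled Miz1 kd minus Hmhi EGF. This SD does not hold variation that all probe sets of an array share, such as that of labelling or of the culture. Precision is limited by there being 1 array per condition. In bulk RNA, fewer cells of a type and less RNA per cell cannot be told apart.

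MYC is a transcription factor that pairs with MAX and activates genes through E-box sites, many of them with roles in ribosome production, nucleotide synthesis and cell division. At other promoters MYC and MAX bind the zinc finger protein Miz-1, encoded by Zbtb17, and the complex represses genes that Miz-1 would activate, among them inhibitors of cyclin-dependent kinases. In melanocytes, growth factor signalling through receptor tyrosine kinases controls division, survival and pigment production, and oncogenic signalling can drive the cells into senescence.

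The target gene did not bear out the label of the Miz1 kd array. Zbtb17 read 8.73, 8.72, 9.07 and 8.71 on its brighter probe set, so the array labelled Miz1 kd was the highest of the 4. Its dimmer set read 6.50, 6.51, 6.72 and 6.78, with a difference of 0.06. The arrays measure transcripts and not Miz-1 protein, and the array is called here by its label only. Myc, on 1 probe set, read 10.64, 10.60, 10.79 and 9.78, lower in MYC-TA than in the 3 other arrays, with a difference of -1.01. Whether that set reads a transcript of the MYC-TA construct is not known.

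The melanocyte identity of the cells was checked on 10 markers. Of these, 8 to 9 lay at or above the median of each array. Tyr, the tyrosinase gene, was below the median in all 4, at 4.62, 5.63, 5.08 and 4.99. Sox10, a defining transcription factor of the lineage, read 13.22, 13.21, 13.37 and 12.96. Of 9 endothelial markers 0 to 2 reached the median, of 11 keratinocyte markers 3 did in every array, of 10 haematopoietic markers 4 to 5, of 11 fibroblast markers 4 to 6 and of 8 Schwann cell markers 6 to 7. The log2 of the summed signal of the melanocyte markers was 15.2, 14.7, 14.9 and 14.5, that of the Schwann cell markers 15.2, 15.0, 15.2 and 14.8, that of the fibroblast markers 12.3, 12.1, 12.0 and 12.5, and that of the haematopoietic markers 12.3, 12.6, 12.2 and 11.3. The other lists held markers on both sides of the median. Of the fibroblast markers, Dcn at 9.45 to 11.56, Postn at 7.91 to 10.15, Pdgfrb at 6.91 to 11.16 and Pdgfra at 7.40 to 8.24 were above it on all 4 arrays, while Col1a1 at 5.84 to 6.03 was below. Of the keratinocyte markers, Krt5 at 7.04 to 7.24, Krt10 at 7.65 to 8.07 and Itgb4 at 7.73 to 8.80 were above and Krt14 at 5.66 to 6.19 below. Of the haematopoietic markers, Csf1r at 6.73 to 9.41, Cd3e at 6.96 to 7.38 and Laptm5 at 7.22 to 7.56 were above and Ptprc at 4.09 to 4.58 below. Pecam1 of endothelial cells was below at 4.83 to 4.95. The haematopoietic sum was carried by Lyz2, a lysozyme gene, at 11.87, 12.37, 11.89 and 10.74. The part of other cell types in the differences below was not tested.

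In all, 780 genes were higher in MYC-TA by 2-fold or more and 495 were lower, that is 6.72% and 4.26% of the genes that entered. These shares of all genes are the background for every list count below. The median difference of all genes was 0.04, with quartiles of -0.29 and 0.41. At 4-fold the counts were 131 higher and 49 lower, and at 8-fold 54 and 8. Of the higher genes 219 lay below the median on the array labelled Miz1 kd, and of the lower genes 62 lay below the median in MYC-TA. These genes passed the level filter through their higher array alone, which partly fixes the counts, also those of the lists below. Where both arrays were above the median, 561 genes (5.19%) were higher and 433 (4.01%) lower. Several probe sets passed the level filter for 305 of the higher genes, and in 275 of them every set was positive. For the lower genes, all sets were negative in 215 of 238. The balance depended on the probe set: with the set of median difference in place of the brightest, 524 genes were higher and 535 lower, so that 49.5% of the calls were higher against 61.2%.

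The Hmhi EGF array showed from which side the gap came. Its level lay between the 2 compared arrays for 701 of the 780 higher genes and for 463 of the 495 lower genes, which the choice of genes that lie far apart partly fixes. Against Hmhi EGF, 240 of the higher genes were lower on the array labelled Miz1 kd by 2-fold or more and 134 were higher in MYC-TA, with 41 in both counts. Of the lower genes 156 were at least 2-fold lower in MYC-TA and 29 at least 2-fold higher on the array labelled Miz1 kd, with 7 in both. The median displacements from Hmhi EGF were 0.66 for MYC-TA and -0.71 for the array labelled Miz1 kd among the higher genes, and -0.85 and 0.47 among the lower. Both displacements use the same Hmhi EGF array.

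**Figure D1:**
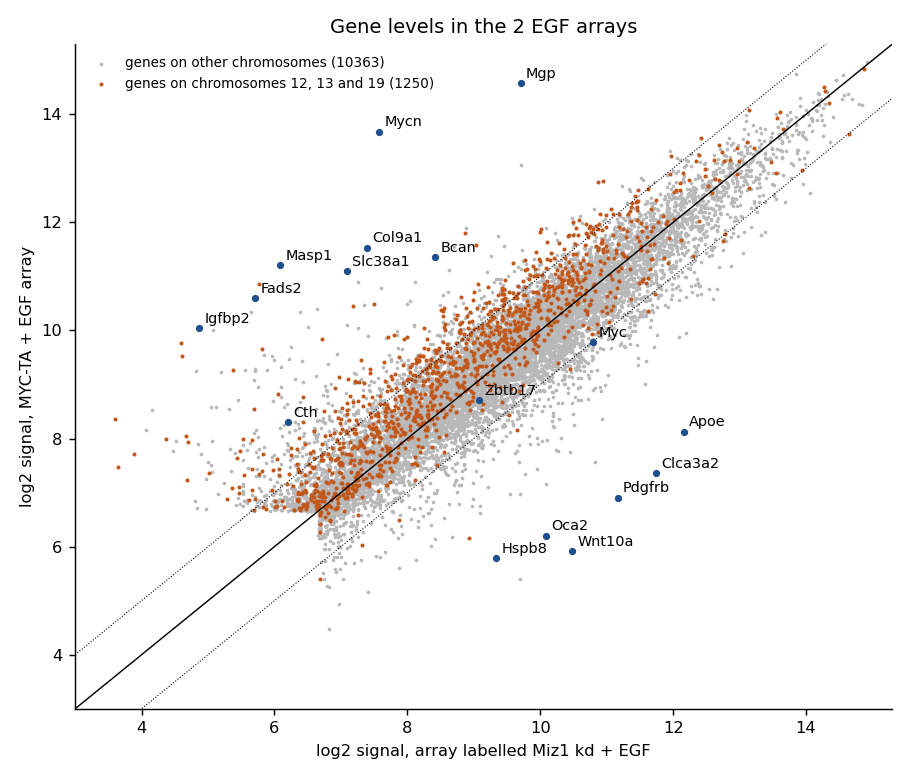
Log2 signal of each of the 11613 genes on the array labelled Miz1 kd with EGF (horizontal axis) and on the MYC-TA array with EGF (vertical axis); the solid line marks equal levels, the dotted lines 2-fold, orange points are genes on chromosomes 12, 13 and 19 and blue points are named genes. Igfbp2, Masp1, Fads2, Mycn and Mgp lie far above the line, Apoe, Clca3a2, Pdgfrb, Oca2 and Wnt10a far below it, and the orange points lie mostly above it.

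Several of the genes with the highest differences were below the array median on the array labelled Miz1 kd and bright in the others. Igfbp2, which encodes a binding protein of insulin-like growth factors, read 8.26, 7.95, 4.86 and 10.04, a difference of 5.17 or 36.1-fold. Masp1, a serine protease of the lectin pathway of complement, read 9.41, 10.36, 6.08 and 11.21, with differences of 2.42 to 5.12 over its 3 passing probe sets. Fads2, the fatty acid desaturase that starts the synthesis of long polyunsaturated fatty acids, read 8.47, 9.40, 5.71 and 10.60, and its 3 sets gave 2.73 to 4.88. In these 3 genes the array labelled Miz1 kd was the lowest of the 4 and MYC-TA the highest. The same held for Nfe2l3, a transcription factor related to NRF2, at 8.79, 8.63, 5.07 and 10.01, for Ms4a4d, a membrane protein, at 7.52, 9.01, 5.76 and 10.85, and for Smpdl3b, a membrane phosphodiesterase, at 6.33, 7.43, 5.64 and 10.35.

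Other genes stood apart while above the median on both arrays. Mgp, the matrix Gla protein that inhibits calcification, read 11.07, 12.28, 9.70 and 14.58, a difference of 4.87. Col9a1, a cartilage collagen chain, read 8.79, 10.21, 7.39 and 11.53, with 1.84 and 4.14 on its 2 sets. Slc38a1, a sodium-coupled glutamine transporter, read 7.14, 9.15, 7.09 and 11.10, so that the array labelled Miz1 kd lay at the starved level and MYC-TA above Hmhi EGF. Tgfbi, an extracellular protein induced by TGF-beta, read 5.001, 8.562, 7.186 and 10.461, and all 4 of its sets gave 2.36 to 3.27. Ppargc1a, the transcriptional coactivator of mitochondrial biogenesis, read 6.96, 9.26, 7.41 and 9.89, and its 5 sets gave 2.13 to 2.82. Lcn2, an iron-binding lipocalin, read 5.33, 12.08, 7.60 and 10.79, below Hmhi EGF on both arrays. Wfdc18, at 8.27, 13.39, 9.71 and 13.07, was close to Hmhi EGF in MYC-TA, while the starved array and the array labelled Miz1 kd lay lower. Cpxm2, at 6.80, 9.17, 4.83 and 9.25, had the same pattern but was below the median on the array labelled Miz1 kd.

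Among the lowest differences, MYC-TA was mostly the array that stood apart. Wnt10a, a secreted WNT ligand, read 11.54, 8.82, 10.48 and 5.92, a difference of -4.57. Clca3a2, a secreted regulator of chloride conductance, read 9.33, 11.62, 11.74 and 7.36, with -4.38 and -4.85 on its 2 sets. Apoe, the apolipoprotein of cholesterol transport, read 8.52, 12.05, 12.16 and 8.13, a difference of -4.03 or 16.3-fold. For Apoe and Clca3a2 the Hmhi EGF array and the array labelled Miz1 kd differed by 0.10 and 0.12, and MYC-TA was below the starved array. Abca8a, a lipid transporter, at 8.78, 10.92, 10.83 and 7.56, Islr, a matrix protein, at 7.401, 11.101, 10.926 and 8.367, and Gbp8, an interferon-inducible GTPase, at 7.27, 10.47, 10.45 and 7.75 also had MYC-TA below both other EGF arrays, which lay close together. Hspb8, a small heat shock protein, read 9.66, 8.12, 9.34 and 5.78, and its 3 sets gave -3.55 to -0.67. Sbno2, a transcriptional regulator downstream of interleukin-10, read 9.35, 9.79, 10.23 and 7.79, with 4 sets from -2.49 to -1.46. Ogt, the enzyme that attaches N-acetylglucosamine to nuclear and cytoplasmic proteins, read 12.34, 13.31, 13.68 and 12.38, and its 5 sets gave -2.66 to -1.29.

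**Figure D2:**
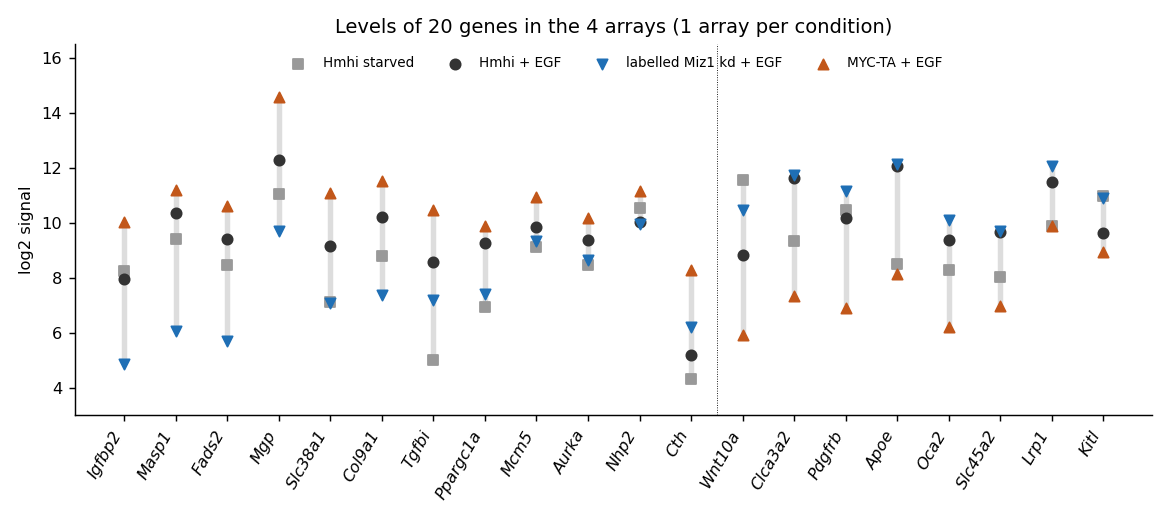
Log2 signal (vertical axis) of 20 genes in the 4 arrays, with 1 symbol per array and a grey bar from the lowest to the highest array; genes left of the dotted line are higher in MYC-TA than on the array labelled Miz1 kd and genes right of it lower. Igfbp2 spans 4.86 to 10.04 and Apoe 8.13 to 12.16.

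Mycn carried the largest difference of all named genes, and it rested on 1 probe set. That set read 13.32, 13.53, 7.57 and 13.68, a difference of 6.11 or 69.0-fold, with only the array labelled Miz1 kd away from the others. The other set that passed the level filter read 5.56, 6.97, 6.84 and 7.22, a difference of 0.38. The remaining set, below the median on both arrays, read 5.88, 5.63, 5.84 and 5.79, a difference of -0.06. The 3 sets of Mycn thus do not agree, and whether the bright set reads the Mycn transcript was not tested. Of the genes beside Mycn on its chromosome, Ddx1 differed by 0.63, Nbas by 0.01, Cyria by 2.16 and Trib2 by 1.43.

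In the MYC network, 23 genes entered, with 3 higher, 4 lower and a median of 0.12 (-0.20 without the 4 members on chromosomes 12, 13 and 19, which are described below). Max, the obligate partner of MYC, read 7.96, 7.13, 7.03 and 7.91, a difference of 0.88. Mxi1, an antagonist that competes for MAX, read 10.04, 9.30, 8.88 and 10.42, with 1.01 and 1.53 on 2 sets. Mga, another MAX partner, read 9.07, 9.33, 9.73 and 8.45 and was lower in MYC-TA by both of its sets, at -1.27 and -1.05. Huwe1, a ubiquitin ligase of MYC, Miz-1 and other proteins, read 11.68, 11.61, 12.10 and 10.75, and its 5 sets gave -1.52 to -0.66. Trrap, a coactivator that MYC recruits, read 10.29, 10.91, 11.31 and 10.29, a difference of -1.02.

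Cdkn1a and Cdkn2b, inhibitors of cyclin-dependent kinases that Miz-1 is known to activate, did not move together. Cdkn1a, which encodes p21, read 8.12, 10.29, 9.49 and 10.11, with 0.56 and 0.62 on its 2 sets. Cdkn2b, which encodes p15, read 9.18, 8.74, 9.31 and 8.49, a difference of -0.82. Cdkn2a, whose locus encodes p16 and p19, read 7.87, 7.89, 7.59 and 8.72, a difference of 1.13 and past 2-fold, unlike Cdkn1a and Cdkn2b. Of 27 targets of p53 that entered, 0 were higher and 2 lower (7.41%, against 4.26% of all genes), with a median of -0.20. The 2 were Cpt1c at -1.47 and Gadd45a at -1.46.

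Genes of DNA replication were higher in MYC-TA as a group. Of 50 that entered, 12 were higher by 2-fold or more and 1 lower, against 6.72% and 4.26% of all genes, and 43 were above 0, with a median of 0.76 against 0.04 for all genes. The shift came from MYC-TA, with a median of 0.63 against Hmhi EGF, more than from the array labelled Miz1 kd, with -0.11 against the same array. The factors that license replication origins led, with 6 of 12 higher and a median of 1.04. Gmnn, the licensing inhibitor geminin, read 8.97, 8.86, 7.96 and 9.84. Mcm5, a subunit of the replicative helicase, read 9.12, 9.85, 9.33 and 10.95, with 1.38 and 1.62 on its 2 sets. Mcm3 and Mcm4, subunits of the same helicase, differed by 1.36 and 1.14 (0.17 to 1.57 over the 5 sets of Mcm3), and Cdc6, which loads the helicase, by 1.21. Among polymerases and their clamp, 4 of 18 were higher: Rpa2 at 1.37, Rfc4 at 1.27, Pola1 at 1.09 and Pole2 at 1.09. Cdc7, a kinase that fires origins, was the 1 lower gene, at 8.64, 9.90, 10.51 and 9.46.

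Mitotic genes followed the same pattern. Of 54 that entered, 14 were higher (25.9%, against 6.72% of all genes) and 0 lower, while 48 were above 0. The list median was 0.66. Medians of the mitotic genes against Hmhi EGF were 0.46 in MYC-TA and -0.20 on the array labelled Miz1 kd. Kinases and cyclins had 4 of 12 higher, kinetochore genes 4 of 12, spindle motors 4 of 11, and genes of mitotic exit and chromosome condensation 2 of 19. Ube2c, the ubiquitin-conjugating enzyme of the anaphase-promoting complex, read 9.66, 10.66, 9.73 and 11.48. Aurka, the centrosomal Aurora kinase, read 8.47, 9.39, 8.66 and 10.18, a difference of 1.51. Kif11, the motor that separates spindle poles, read 7.44, 7.91, 7.11 and 9.11, with 2.59 on another set but 0.18 on the dimmest. Anln, a contractile ring protein, gave 1.51 and 2.54 on 2 sets, and Bub1, a checkpoint kinase, 1.44 and 2.57. Without the members on chromosomes 12, 13 and 19, 10 of 46 replication genes and 10 of 50 mitotic genes were still higher, with medians of 0.68 and 0.64.

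Proteins of the nuclear lamina and chromatin had 4 of 31 genes higher (12.9%, against 6.72% of all genes) and 0 lower. The median was 0.27. Hmgb2, a DNA-bending chromatin protein, read 10.34, 10.81, 10.08 and 11.89, and its 3 sets gave 1.52 to 2.55. Lmnb1, the lamin B1 gene, read 8.36, 9.11, 8.69 and 10.14, with 1.35 and 1.45 on 2 sets. Hells, a chromatin remodeller needed for DNA methylation, differed by 1.79 and Hmgb3 by 1.35.

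RefSeq promoter windows of build GRCm38.p6, which run over the annotated start of each gene, were searched for sites known from cell cycle and interferon genes, on both strands. A window was present for 9420 of the genes that entered. The E2F site, searched as TTTGGCGC, TTTCCCGC or TTTCGCGC, stood in 15 of 40 replication genes with a window, or 37.5%, against 3.78% of all genes that entered and 1.84% of all 32851 windows. The CHR motif of mitotic genes, TTTGAA, stood in 34 of 47 mitotic genes, or 72.3%, against 11.4% and 17.9%. These shares describe the lists and not the comparison of the arrays: among the 12 higher replication genes 5 of 9 with a window held an E2F site, and among the 14 higher mitotic genes 7 of 12 held the CHR motif. Shown are the 200 bases before the start of higher genes with a match there, in capitals. They lie at chr8:75109309-75109508 on the plus strand (Mcm5), chr11:98907951-98908150 on the plus strand (Cdc6), chrX:93632156-93632355 on the minus strand (Pola1), chr19:37376182-37376381 on the plus strand (Kif11) and chr2:164769729-164769928 on the plus strand (Ube2c). The capitals mark E2F sites in the replication genes, with a pair that overlap in Mcm5, and the CHR motif in the mitotic genes.
Mcm5: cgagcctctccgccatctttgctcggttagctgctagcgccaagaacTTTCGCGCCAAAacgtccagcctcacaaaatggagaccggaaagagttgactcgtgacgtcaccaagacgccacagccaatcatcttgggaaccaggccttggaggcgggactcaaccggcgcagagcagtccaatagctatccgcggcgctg
Cdc6: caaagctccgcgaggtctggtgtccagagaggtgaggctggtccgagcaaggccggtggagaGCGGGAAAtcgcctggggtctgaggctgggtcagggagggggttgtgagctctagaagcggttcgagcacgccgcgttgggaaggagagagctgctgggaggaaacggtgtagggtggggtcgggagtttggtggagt
Pola1: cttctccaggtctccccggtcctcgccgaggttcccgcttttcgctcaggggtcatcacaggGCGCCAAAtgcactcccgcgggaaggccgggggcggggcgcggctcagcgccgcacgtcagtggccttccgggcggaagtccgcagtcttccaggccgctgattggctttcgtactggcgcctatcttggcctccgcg
Kif11: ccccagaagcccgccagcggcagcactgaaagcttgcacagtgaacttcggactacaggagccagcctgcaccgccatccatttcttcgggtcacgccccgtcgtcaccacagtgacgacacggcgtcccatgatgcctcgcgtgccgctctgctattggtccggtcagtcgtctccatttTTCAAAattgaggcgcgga
Ube2c: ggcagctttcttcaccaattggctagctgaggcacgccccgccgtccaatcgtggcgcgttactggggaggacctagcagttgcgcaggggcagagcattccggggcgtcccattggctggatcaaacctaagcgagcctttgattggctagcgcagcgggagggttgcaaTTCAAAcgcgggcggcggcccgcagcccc
The CHR match began 19 bases before the start in Kif11 and 29 bases before it in Ube2c, while the E2F matches began 138 bases before the start in Cdc6 and Pola1. A match is a run of letters and was not measured as a bound site.

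Genes that make ribosomes were higher to a smaller degree. Of 60 that entered, 8 were higher and 1 lower, against 6.72% and 4.26% of all genes, while 46 were above 0 and the median was 0.36. Away from chromosomes 12, 13 and 19, 4 of 51 members were higher and 1 lower, with a median of 0.29. Both arrays lay above Hmhi EGF, with medians of 0.47 in MYC-TA and 0.16 on the array labelled Miz1 kd. Proteins of the box snoRNPs, which guide the chemical modification of ribosomal RNA, had 3 of 8 higher and a median of 0.81. Nolc1 read 9.78, 9.39, 9.18 and 10.51, with 0.96 to 1.85 over its 3 sets. Nhp2 read 10.56, 10.04, 9.97 and 11.14, with 1.18 and 1.19 on its 2 sets, and Nop58 9.92, 9.38, 9.40 and 10.48. Lyar, a nucleolar growth regulator, differed by 1.27, Nop16 by 1.27 and Rrp12 by 1.19. Taf1d, of the RNA polymerase I initiation complex, was the 1 lower gene at -1.42, but its 6 sets ran from -1.42 to 1.17. The MYC E-box CACGTG stood in 11 of the 55 ribosome genes with a window, against 10.4% of all genes that entered, and in 0 of the 7 higher ones with a window. It stood in 10.2% of all higher genes with a window and 6.44% of the lower. Cytoplasmic ribosomal proteins had 1 of 43 higher and 1 lower (2.33% each, below the shares of all genes), with a median of 0.17.

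Enzymes of nucleotide, folate and polyamine synthesis had 5 of 38 higher and 1 lower, with a median of 0.37. That is 13.2% and 2.63%, against 6.72% and 4.26% of all genes. Rrm2, the small subunit of ribonucleotide reductase, read 8.69, 9.34, 8.25 and 10.05, a difference of 1.80, with all 3 sets above 1. Dut and Umps, enzymes of pyrimidine nucleotides, differed by 1.41 and 1.34, and Uck2, a uridine kinase, read 9.96, 9.36, 9.11 and 10.60. Odc1, the ornithine decarboxylase of polyamine synthesis and a classic MYC target, read 11.31, 11.09, 10.57 and 11.76, with 0.84 to 1.54 over 3 sets. Of the 11 purine enzymes 0 passed 2-fold, and their median was 0.44. Aldh1l2, a mitochondrial folate enzyme, was lower, at -1.04.

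Sulfur amino acid genes had 3 of 19 higher (15.8%, against 6.72% of all genes) and 0 lower, with a median of 0.41. Cth, the cystathionase that makes cysteine from cystathionine and the gene named in the series title, read 4.343, 5.183, 6.202 and 8.305, a difference of 2.10 on 1 probe set. It was above the array median in MYC-TA alone, so the size of the fold depends on the background of the other arrays. Cbs, the enzyme of the step before it, differed by -0.22. Sqor, which oxidizes hydrogen sulfide, read 10.41, 9.47, 8.71 and 10.23, and Tst, a mitochondrial sulfurtransferase, 9.98, 8.46, 8.15 and 9.52. For both, MYC-TA was close to the starved array and the array labelled Miz1 kd the lowest. Mtr and Mtrr, which regenerate methionine, differed by 0.84 and 0.82.

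Amino acid transporters and the genes induced by the stress factor ATF4 were divided. Of 29 transporters 4 were higher (13.8%) and 3 lower (10.3%), with a median of -0.16. Beside Slc38a1, Slc38a3 was higher at 7.27, 9.85, 7.69 and 9.86, where MYC-TA was at the Hmhi EGF level and the array labelled Miz1 kd lay near the starved level. Slc1a5, another glutamine carrier, was lower in MYC-TA at 9.85, 11.78, 12.60 and 10.59, with -2.31 and -2.01 on its 2 sets, and Slc1a2, a glutamate carrier, at 6.11, 7.53, 8.35 and 6.01. In the ATF4 list, 2 of 44 were higher, Cth and Psat1, an enzyme of serine synthesis at 1.17, and 3 were lower. The median was -0.18. The shares, 4.55% and 6.82%, were near those of all genes, 6.72% and 4.26%. Ddit3, the stress transcription factor CHOP, was lower by both sets, at -2.34 and -1.06.

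**Figure D3:**
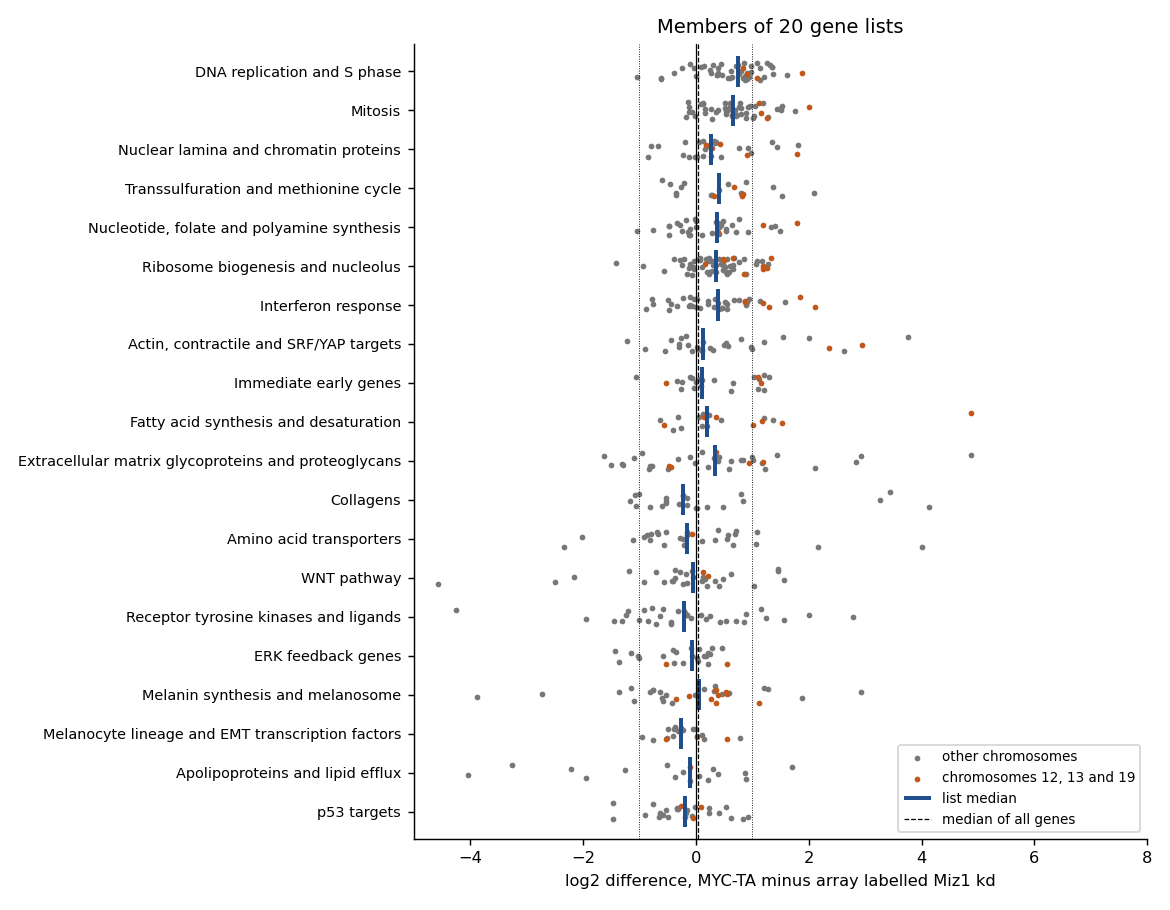
Log2 difference of each member of 20 gene lists (horizontal axis), MYC-TA minus the array labelled Miz1 kd, with 1 row per list and random vertical jitter; orange points are members on chromosomes 12, 13 and 19, blue bars are list medians, the dashed line is the median of all genes at 0.04 and the dotted lines are 2-fold. Replication and mitosis have the medians farthest to the right, 0.76 and 0.66, while WNT, receptor tyrosine kinase and lipid efflux lists spread to both sides.

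Interferon-stimulated genes had 6 of 41 higher (14.6%, against 6.72% of all genes) and 0 lower, with a median of 0.39. Against Hmhi EGF both arrays were lower, with medians of -0.35 in MYC-TA and -0.61 on the array labelled Miz1 kd. The leaders were Ifit1 and Ifit2, antiviral RNA-binding proteins, at 8.06, 10.26, 7.80 and 9.91 for Ifit1 and 10.33, 9.69, 8.55 and 10.41 for Ifit2. Rtp4 read 9.69, 12.11, 10.22 and 11.80. Of the 6 higher genes 4 lay on chromosomes 12 and 19, and of the 35 members elsewhere 2 were higher, with a median of 0.22. The interferon-stimulated response element, searched as GAAA, any 2 bases and GAAA, stood in 12 of 31 list members with a window, or 38.7%, against 2.86% of all genes that entered. This share describes the list and not the comparison of the arrays. Of the 5 higher members with a window 2 held the element, Ifit1 and Ifit3, as did 2.99% of all higher genes with a window. The 200 bases before the start of Ifit1 (chr19:34640689-34640888 on the plus strand) and Ifit3 (chr19:34583329-34583528 on the plus strand) each held a pair of matches, shown in capitals as their reverse complement.
Ifit1: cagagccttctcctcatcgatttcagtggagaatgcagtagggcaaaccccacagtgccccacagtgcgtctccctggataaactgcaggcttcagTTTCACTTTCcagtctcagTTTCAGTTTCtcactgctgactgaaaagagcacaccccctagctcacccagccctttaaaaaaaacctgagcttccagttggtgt
Ifit3: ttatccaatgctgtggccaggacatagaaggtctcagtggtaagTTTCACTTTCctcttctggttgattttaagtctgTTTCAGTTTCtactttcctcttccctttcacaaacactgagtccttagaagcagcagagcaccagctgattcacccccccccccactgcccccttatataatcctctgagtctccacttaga
Among genes of antigen presentation, Psmb9, an immunoproteasome subunit, was higher at 7.02, 9.54, 7.08 and 8.84, with the array labelled Miz1 kd near the starved level, and H2-M3, a class I molecule that presents bacterial peptides, differed by 1.59. Nlrc5, the activator of these genes, was lower, at 9.37, 10.63, 10.61 and 9.42.

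Contractile genes and targets of the coactivator YAP had 7 of 31 higher and 1 lower, with a median of 0.13. That is 22.6% and 3.23%, against 6.72% and 4.26% of all genes. Among the higher ones, Ccn2, Ankrd1 and Tgfb2 passed the level filter through MYC-TA alone, which partly fixes that count. Ccn2, the connective tissue growth factor, read 9.25, 9.41, 6.63 and 10.40, a difference of 3.76. Acta2, smooth muscle actin, read 11.81, 9.70, 8.86 and 11.80, and Cnn1, a calponin, 11.72, 7.93, 6.95 and 9.57. Ankrd1 read 8.04, 4.44, 5.01 and 7.37 and Ccn1 12.68, 9.60, 9.74 and 11.29, so that in MYC-TA both lay between the starved and the EGF levels. Myl6, a myosin light chain, was the 1 lower gene, at -1.21. Immediate early genes had 8 of 23 higher and 1 lower, against 6.72% and 4.26% of all genes, with a median of 0.10. Egr2 and Klf2, among the higher ones, also passed the filter through MYC-TA alone. Of the 6 FOS and JUN genes only Fos was higher by 2-fold, and their median was -0.26. Fos read 13.94, 10.58, 10.14 and 11.29, Egr1 13.88, 11.19, 10.97 and 12.07 and Egr2 9.78, 6.51, 6.51 and 7.64, each highest in the starved array. Srf, the serum response factor that drives many of these genes, differed by 1.21 and 0.53 on 2 sets, and Nr4a1, a nuclear receptor, was lower at -1.06.

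Receptor tyrosine kinases and their ligands had 5 of 34 higher (14.7%) and 7 lower (20.6%), with a median of -0.20. Pdgfrb, the beta receptor of PDGF, read 10.45, 10.18, 11.16 and 6.91, with -4.26 and -1.87 on its 2 sets. Kitl, the ligand of KIT, was lower by all 3 sets, from -1.94 to -1.23, at 10.97, 9.63, 10.89 and 8.95. Kit itself was higher, at 6.12, 7.04, 6.37 and 7.53. Gas6, a ligand of the TAM receptors, read 6.85, 8.41, 6.32 and 9.09 and Mertk, one of those receptors, 6.58, 8.44, 7.56 and 9.13, both higher in MYC-TA. Fgfr2, a receptor of fibroblast growth factors, was higher at 10.90, 8.94, 8.09 and 10.09, and Fgfr3, another, differed by 1.25. Erbb2, a partner of the EGF receptor, read 10.27, 10.13, 10.57 and 9.56, a difference of -1.01. A list of 24 genes tied to ERK activity had 0 higher and 5 lower, against 6.72% and 4.26% of all genes, with a median of -0.08. Its feedback phosphatases (0 of 6) and ETV factors (0 of 2) were not among the lower genes, and of 6 Sprouty and Spred genes Spred3 was, at -1.42. The 4 others were Il11 at -1.36 and Myc, which are not feedback genes, Phlda1 at -1.16 and Rasa2, a GTPase-activating protein of RAS, at -1.02.

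Pigment genes moved in both directions. Of 32 genes of melanin synthesis and the melanosome, 5 were higher and 5 lower (15.6% each, against 6.72% and 4.26% of all genes). Their median was 0.06, and it was -0.52 in the 23 members away from chromosomes 12, 13 and 19. The list also held Melk, a mitotic kinase, and Bcan, a proteoglycan, which are not melanosome genes and are 2 of the 5. Oca2, the melanosomal protein mutated in pink-eyed dilution, read 8.29, 9.36, 10.09 and 6.21. Slc45a2, the transporter mutated in underwhite, read 8.05, 9.67, 9.70 and 6.97, with -2.73 and -1.96 on its 2 sets. Mc1r, the melanocortin receptor, was lower by both sets, at -1.44 and -1.36. Dct, the dopachrome tautomerase of melanin synthesis, was higher, at 9.79, 11.26, 9.19 and 11.08, and Tyrp1 differed by -0.75. Of 19 lineage and mesenchymal transcription factors 0 passed 2-fold in either direction, and Mitf, the master regulator of the lineage, read 10.81, 9.91, 9.96 and 9.65.

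Of 17 apolipoprotein and lipid efflux genes 1 was higher and 5 lower, against 6.72% and 4.26% of all genes, with a median of -0.11. Beside Apoe and Abca8a, Lrp1, the receptor that takes up ApoE, read 9.88, 11.50, 12.08 and 9.87, with -2.21 and -2.14 on its 2 sets, and Abca7, a lipid transporter, 8.48, 9.12, 9.85 and 7.90. The remaining lower gene was Apobec1 at -1.26, an RNA-editing enzyme that is neither an apolipoprotein nor an efflux gene. Clu, apolipoprotein J, was the higher one, with 1.19 to 4.07 over 4 sets. Of 19 enzymes of fatty acid synthesis 6 were higher (31.6%) and 0 lower, with a median of 0.20. Besides Fads2 these were Scd3, Scd1 and Gpam, all on chromosome 19, and Elovl6 and Acss2, at 1.36 and 1.21. Fads2, Scd3 and Acss2 passed the level filter through MYC-TA alone, which partly fixes that count. In the 12 members away from chromosomes 12, 13 and 19, 2 were higher and the median was 0.11. Of 24 genes of sterol synthesis 2 were higher (8.33%) and 0 lower, with a median of 0.02. Both, Hmgcs1 at 1.08 and Idi1 at 1.21, lie on chromosome 13. Fasn, the fatty acid synthase, was not among the higher genes, at 10.27, 11.13, 11.13 and 10.49.

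Matrix and signalling lists were wide in both directions. Matrix glycoproteins and proteoglycans had 9 of 38 higher and 5 lower, with a median of 0.34. That is 23.7% and 13.2%, against 6.72% and 4.26% of all genes. Fibroblast markers had 3 of 6 higher and 1 lower, with a median of 0.98. Of the 11 measured, 6 reached the array median in MYC-TA and 4 on the array labelled Miz1 kd. Some thus entered through MYC-TA alone, which partly fixes that count and median. The 3 higher ones (Dcn, Postn and Col3a1) are also members of the matrix and collagen lists. The part of fibroblast markers in these lists and in the contractile list was not tested. Bcan, the proteoglycan brevican, read 7.17, 10.61, 8.42 and 11.35, and Dcn, the proteoglycan decorin, 11.504, 10.345, 9.448 and 11.564. Loxl3, a lysyl oxidase, read 10.65, 12.54, 13.05 and 11.43 and was lower. Collagens had 3 of 23 higher and 4 lower, with a median of -0.23: Col3a1 at 3.43 and Col2a1 at 3.26 stood beside Col9a1, while 0 of the 5 basement membrane chains were above 0, their range being -1.08 to -0.23. WNT genes had 4 of 32 higher and 4 lower (12.5% each). The lower ones included the ligands Wnt10a and Wnt6, at 8.64, 9.45, 10.26 and 7.76 for Wnt6, and the antagonist Dkk3, at 11.75, 11.21, 11.59 and 9.43. The 4 higher ones were receptors, among them Fzd9 at 1.57 and Fzd4, with 1.46 and 1.65 on its 2 sets.

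Of 24 genes known from 2-cell embryos, 9 had a probe set, 6 entered and 4 were higher, against 6.72% of all genes. All 4 passed the level filter through MYC-TA alone, which partly fixes that count. Tcstv1 read 4.22, 7.86, 3.65 and 7.48, Pramel18 5.07, 8.78, 5.05 and 8.59, Usp17la 5.65, 9.34, 5.13 and 8.58, and Zfp352 6.42, 8.38, 6.21 and 8.13. In these genes the starved array and the array labelled Miz1 kd lay together below the median, and Hmhi EGF and MYC-TA lay together above it. They belong to families of near-identical copies, so a probe set may read several of them. Ddx4, a germline RNA helicase, had another order, at 9.17, 6.94, 5.82 and 9.66.

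The differences were unevenly spread over the chromosomes, a pattern found after the values were seen. The median difference was 0.72 over the 425 genes of chromosome 19, 0.44 over the 424 of chromosome 13 and 0.40 over the 401 of chromosome 12. Chromosome 16 followed with 0.24 and chromosome 8 with 0.20, and the lowest medians were -0.20 on chromosome 18, -0.17 on chromosome 10 and -0.16 on chromosome 6. On chromosome 19, 87.1% of genes were above 0, 154 were higher by 2-fold or more (36.2%) and 3 were lower (0.706%). Against Hmhi EGF its median was 0.41 in MYC-TA and -0.28 on the array labelled Miz1 kd, and the starved array gave -0.06. Together chromosomes 12, 13 and 19 held 1250 genes, or 10.8% of those that entered, 272 of the 780 higher genes (34.9%) and 11 of the 495 lower genes (2.22%). On the other chromosomes 508 of 10363 genes were higher (4.90%) and 484 lower (4.67%), with a median of -0.002. Chromosomes 12, 13 and 19 were set apart because their medians of this same difference lay more than 0.3 from 0. That choice partly fixes these shares and the balance of the remainder, which still held chromosome 16. The files hold RNA levels, and DNA copy number was not measured in them.

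**Figure D4:**
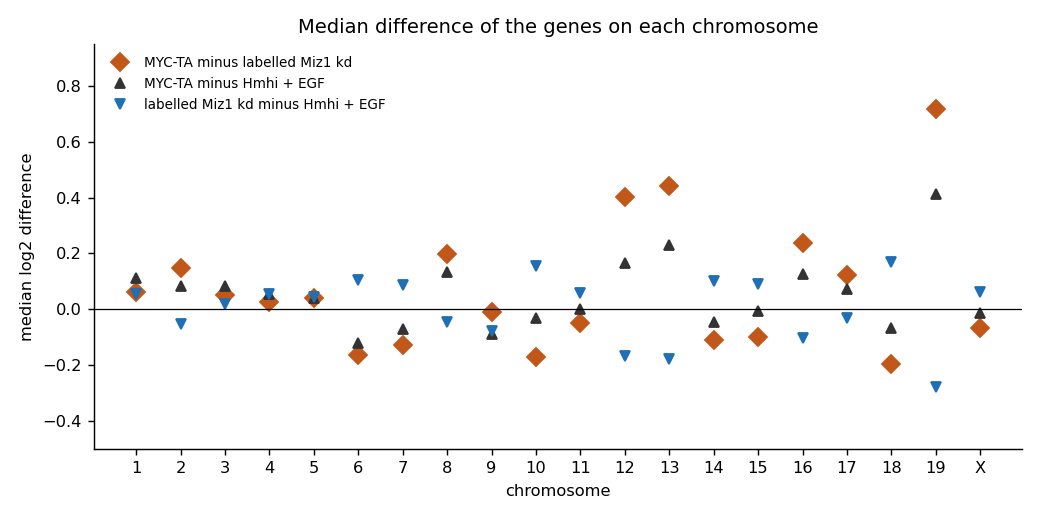
Median log2 difference (vertical axis) of the genes on each chromosome (horizontal axis) for MYC-TA minus the array labelled Miz1 kd (diamonds) and, sharing the Hmhi EGF array, for each of the 2 arrays minus Hmhi EGF (triangles). Chromosome 19 stands highest at 0.72, followed by 13 at 0.44 and 12 at 0.40.

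The shift ran along the whole of these chromosomes. Genes were placed in the order of the RefSeq gene table and cut into blocks of 40, with the remainder in the last block, which held 41 genes on chromosome 12, 64 on chromosome 13, 65 on chromosome 19, 79 on chromosome 11 and 44 on chromosome 9. On chromosome 19 all 10 blocks had a median above 0, from 0.34 to 1.08, the highest being the last block. On chromosome 12 all 10 did, from 0.20 to 0.60, and on chromosome 13 all 10, from 0.27 to 0.57. On chromosome 11, by comparison, 7 of 23 blocks were above 0 and the range was -0.21 to 0.14, and on chromosome 9 it was 6 of 16 with -0.16 to 0.19. Chromosomes 12, 13 and 19 were chosen by their medians, which makes blocks above 0 likely there. Chromosomes 11 and 9 had medians of -0.05 and -0.01, and chromosomes 16 and 8 were not cut into blocks. Bright genes showed the shift too: where both arrays were above the median, the medians were 0.69, 0.41 and 0.38 on chromosomes 19, 13 and 12. Many leaders of the lists above lie there, among them Fads2, Scd1, Kif11, Hells, Acta2, Ankrd1, Ifit1, Nolc1, Psat1 and Mxi1 on chromosome 19, Mycn, Max, Rrm2, Odc1 and Fos on chromosome 12, and Gmnn, Tgfbi, Tcstv1 and Ddx4 on chromosome 13. Of the 51 genes named for the largest differences or the best support over probe sets, 8 lie on these 3 chromosomes.

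**Figure D5:**
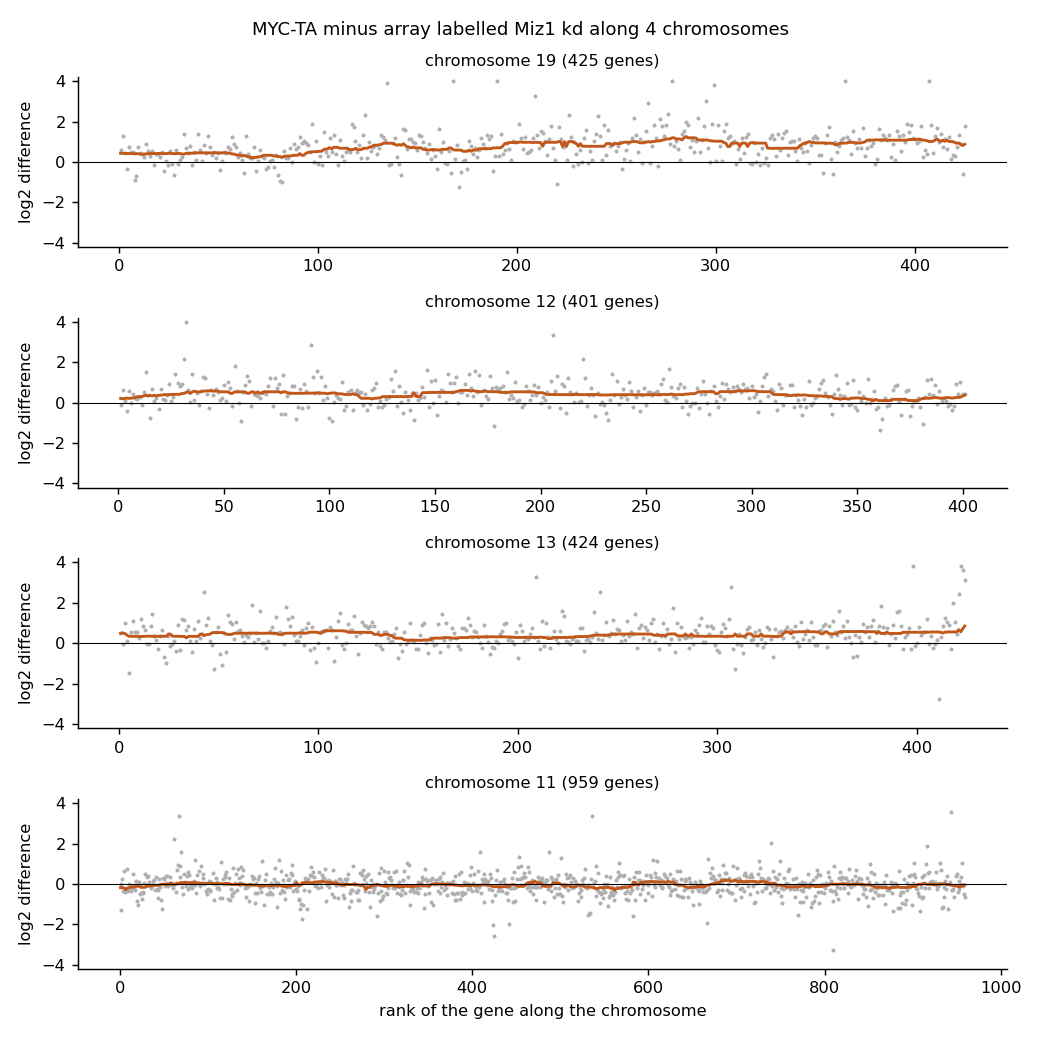
Log2 difference of each gene (grey points, limited to the range from -4 to 4) against its rank along chromosomes 19, 12, 13 and 11, with the running median of 41 genes in orange. The running median stays above 0 along nearly all of chromosomes 19, 12 and 13 and around 0 along chromosome 11.

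Control probe sets gave the state of the RNA and the labelling. The 3′ minus 5′ log2 difference of the Actb control was 0.66, 0.87, 0.74 and 0.72 and that of Gapdh -0.22, -0.31, -0.40 and -0.24, similar on the 2 arrays compared. The poly-A spikes added before labelling were higher in MYC-TA in 24 of 24 sets, by a median of 0.52, and the hybridization spikes differed by a median of -0.12. Those 24 sets are repeated readings of the dap, lys, phe and thr spikes. The part of the labelling in the differences above was not tested.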

How the data were processed

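Total RNA of 4 melan-a cultures was measured on Affymetrix mouse expression arrays, 1 per condition, from 100 ng of RNA each, per the labels' protocols. The authors deposited 1 table of 45101 probe sets, taken as log2 values from their range of 2.94 to 15.12. Once sorted, the 4 columns differed by at most 0.004 at any rank, which hides a common shift of all genes. The log base, the summarization and the normalization are not given in the sources used here. Values were not centred per gene.

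The platform annotation of 2016 gave 1 gene for 34945 probe sets, several for 932 and none here for 9160, and 64 were controls. Of the sets with 1 gene, 34741 matched the RefSeq gene table by Entrez identifier. Differences, 2-fold counts and list medians were computed with Python 3.11.15 and pandas 2.3.3, with the level filter, probe set choice and scale of the report, and the steps were tested on simulated data. With 1 array per condition no test was run. The members and the 46 gene lists were chosen with earlier results of these data known.

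Named genes were at least 2-fold apart, of the same sign in every passing probe set and no gene models. They were the 12 highest and 12 lowest differences, the same among genes above the median on both arrays, and 8 per direction with the best support over at least 3 sets. Up to 6 members per list, the cell type markers and Zbtb17, Myc, Mycn, Max, Cth, Cbs, Cdkn1a, Cdkn2a and Cdkn2b were added. Other list members and the neighbours of Mycn were named after their values were seen. Promoter windows were matched by symbol, with the window listed at the top for a gene with several, and 9420 of 11613 genes matched. The alternatives were a common median, quantile and loess scaling, 3 other level filters, 3 other probe set choices and 2 other folds. An analysis without chromosomes 12, 13 and 19 was added after the data were seen.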

Additional observations from a re-analysis of the deposited data

Results flagged for a closer look

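The poly-A spike controls, which carry no mouse RNA and belong to no gene comparison, differed between the 2 arrays. All 24 of their probe sets were higher in MYC-TA than on the array labelled Miz1 kd, by a median of 0.52 and a range of 0.19 to 1.07 on the log2 scale. The 24 sets read the dap, lys, phe and thr spikes several times each, so they are not independent readings. Against Hmhi EGF the median was 0.26 in MYC-TA and -0.23 on the array labelled Miz1 kd. The 18 hybridization spike sets, added later, differed by a median of -0.12.

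Probe sets with no gene name in the annotation, which the gene comparison does not use, lay mostly below 0. Of 2748 that passed the level filter 501 were at least 2-fold lower in MYC-TA (18.2%) and 82 higher (2.98%), with a median of -0.36. The 20538 sets with 1 gene had a median of 0.04, with 1394 higher and 1158 lower. Against Hmhi EGF the unnamed sets had a median of -0.18 in MYC-TA and 0.19 on the array labelled Miz1 kd. Neither pattern was tested for a cause.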

How the results depend on the processing

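No paired analysis was possible because there was 1 array of each kind. At 1.5-fold 1979 genes were higher and 1440 lower, and at 3-fold 231 and 110. With a filter at the 75th percentile 491 were higher, and without chromosomes 12, 13 and 19, an alternative added after the data were seen, 508. Taking for each gene the probe set with its median difference gave 524 higher and 535 lower, so that 49.5% of calls were higher against 61.2% in the report. Without the 3 chromosomes that share was 51.2%, which their choice by this same difference partly fixes. The counts under the other scalings, filters and probe set choices stayed within 1.5 times. Quantile scaling gave 780 and 495 again, and a common median 782 and 492. Since the sorted columns were already nearly equal, neither of these scalings could move much. The list medians under both are among the 496 below. The median of chemokines and interleukins, -0.29, was 0.008 without a level filter, that of S100 proteins and annexins, 0.25, was -0.062 when a gene's probe sets were averaged, and that of the endothelial markers, -0.43 over 2 genes, was 0.15 without a filter and 0.27 with both arrays above the median. Beside these 4 values, 496 recomputed list medians moved by less than the SD between probe sets, 0.41, and 18 by more, as did 41 of the recomputed differences of named genes and 0 of the chromosome medians. That SD is the spread of single probe sets and is larger than most of the list and chromosome medians themselves. A median could therefore fall to near 0 without being counted, so these counts say little about how stable the medians are. The causes of the moves were not tested. With 1 array per condition the spread between cultures is unknown, and folds of genes below the median on 1 array are limited by background.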

Other observations

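Lists not described above held single genes that stood apart. Rragd, a GTPase that passes lysosomal nutrient signals to mTORC1, read 5.01, 7.92, 5.75 and 8.95 on the Hmhi starved, Hmhi EGF, labelled Miz1 kd and MYC-TA arrays. Of 54 lysosomal genes 3 were higher and 2 lower (5.56% and 3.70%), near the shares of all genes, 6.72% and 4.26%. Aldh1a1, an enzyme of retinoic acid synthesis, read 12.00, 8.83, 5.66 and 7.43, while Rdh5, a retinol dehydrogenase, was lower in MYC-TA at 8.10, 8.98, 10.10 and 7.98. Ackr3, a scavenging chemokine receptor, read 5.53, 8.10, 5.72 and 8.16. Akr1b8, an aldo-keto reductase, was lower at 9.18, 9.24, 10.50 and 8.46. Its list of 49 glutathione and NRF2 genes had 3 higher and 2 lower (6.12% and 4.08%), also near the shares of all genes.

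Fstl1, a secreted antagonist of BMP signals, read 7.37, 10.36, 8.53 and 10.65 and Id3, a target of those signals, 10.71, 7.58, 6.67 and 8.34, among 35 TGF-beta and BMP genes with 4 higher and 2 lower (11.4% and 5.71%). Of 24 integrin and cadherin genes 1 was higher and 4 were lower (4.17% and 16.7%), led by Itga7, the laminin-binding alpha 7 integrin, at 7.11, 8.73, 9.61 and 7.73. In the IGF system, Igf2 at 8.52, 10.42, 7.92 and 9.11 joined Igfbp2, and Igf2r, the receptor that clears IGF2, was lower at 9.08, 10.60, 11.38 and 9.99. Against 6.72% higher and 4.26% lower of all genes, of 56 genes of DNA repair 1 was higher and 0 lower, and of 63 genes of the mitochondrial respiratory chain 2 were higher and 0 lower, Ndufb8 on chromosome 19 and Uqcrfs1 on chromosome 13. In the unfolded protein response 0 of 27 were higher and 2 lower, the stress sensors Eif2ak3 at -1.33 and Ern1 at -1.15, which ran up to 0.12 on another set.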
